A study of Mus musculus with 6 samples.

Results

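The 10 genes described here are the hypoxia-inducible factor subunit gene Hif1a, 4 genes of oxygen sensing and factor turnover (Egln1, Egln2, Egln3 and Vhl) and 5 genes that the factor is known to induce (Vegfa, Adm, Bnip3, Ndrg1 and P4ha1). They were chosen by name among the 56884 genes of the deposited table, and each had a single row there. Their levels came from RNA sequencing of cells labelled as mouse neutrophils, sorted from bone marrow as CD101+ Ly6G+ mature cells and then kept in culture outside the animal. The libraries were 3 of cells given DKK1, the secreted Wnt antagonist Dickkopf-1, and 3 of cells without it, called control here. The sources used here do not give the strain, age, dose, hours of culture or oxygen level. The labels do not tie libraries to separate animals or cultures, and p-values therefore reflect only how far these libraries spread, which can be technical.

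Hypoxia-inducible factors are pairs of an oxygen-regulated alpha subunit, such as the product of Hif1a, and a stable partner, the product of Arnt. In oxygen the EGLN enzymes hydroxylate prolines of the alpha subunit, VHL then binds it, and it is ubiquitinated and degraded. In low oxygen the subunit is spared, enters the nucleus with its partner and binds short DNA motifs near its target genes. Neutrophils are known to rely on glycolysis and to use this factor for survival and function at inflamed, oxygen-poor sites. The factor is regulated mainly at the protein level, which was not measured here.

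Recovered reads ranged from 5188116 to 9851961 per library, and DKK1 library 2 was the shallowest. DKK1 libraries 1 and 3 differed from each other less than either did from library 2, with chi-square values per degree of freedom of 2.96 against 12.3 and 11.4. Of 12 mature neutrophil markers 11 were lower with DKK1 and 1, Clec4d, was higher, against 36.1% lower and 35.1% higher over all genes tested. The median log2 change of these markers was -8.43, and their summed level ranged from 729020 to 755652 in control and from 23277 to 23878 with DKK1. The sorting markers were near 0 in the DKK1 libraries: Cd101 stood at a normalized count of 5098 ± 178 in control and 3.53 ± 2.31 with DKK1 (SD, n = 3 each), and Ly6g at 1338 ± 72.7 and 5.96 ± 1.30. The transcripts of all 3 DKK1 libraries thus go against their label as CD101+ Ly6G+ mature neutrophils. Groups were taken from the labels, no comparison is possible without these libraries, and each difference below is one between libraries as labelled, and whether these hold the same kind of cell was not tested. Of 16 monocyte and macrophage markers 4 were higher, 8 lower and 4 did not pass, against 35.1% higher and 36.1% lower over all genes tested. With libraries set to equal totals 6 were higher, 5 lower and 5 did not pass, against 43.6% and 29.2%. Under the deposited scaling the summed level of these 16 markers ranged from 51321 to 53246 in control and from 53183 to 62303 with DKK1. C1qa had 0 reads in DKK1 and met the filter only through control, which fixed its direction. The 8 B cell markers summed to at most 1611 in control and 116 with DKK1, and the 8 T and NK cell markers to at most 79.3 and 2.98. The 10 endothelial and stromal markers summed to 322 to 378 in control and 157 to 227 with DKK1, with Pdgfra at 0 reads in both groups and Cdh5 at 0 in DKK1. Of these 7 were tested, and 3 were higher, 3 lower and 1 did not pass, against the same 35.1% and 36.1%. The 8 erythroid markers summed to 1618 to 1780 in control and 315 to 1500 with DKK1. Among the 7 tested, 5 were lower and 2 did not pass. Of these 7, 1 had 0 reads with DKK1 and met the filter only through control, which fixed its direction. The part of these shifts in the results below was not tested.

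Of the 10 genes, Vegfa, P4ha1, Bnip3, Egln2 and Vhl were higher with DKK1, Hif1a, Egln1, Egln3 and Ndrg1 were lower, and Adm had too few reads to test. The test was limma on log2(normalized count + 1) with Benjamini-Hochberg adjustment over 16265 genes, at a threshold of 0.05. A call was common in this comparison: 71.2% of all tested genes passed, 35.1% higher and 36.1% lower, so 9 of 9 called is to be read against that share. The values of the 2 groups did not overlap for the 9 tested genes, as for 73.9% of all genes tested. The sizes differed widely: 95.4% of tested genes had a lower log2 change than Vegfa and 94.2% a lower one than P4ha1, while Egln1 and Egln3 lay at 42.5% and 42.3%. The median log2 change was 0.44 over the 9 genes and -0.03 over all genes tested. In bulk RNA fewer cells of a type and less RNA per cell cannot be told apart.

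The scaling of the libraries decided 2 of these calls. The deposited values sum to 9729307 ± 39771 in control and 6738824 ± 336773 with DKK1 (SD, n = 3 each). With libraries set to equal totals, the median of all genes rose by 0.47 on the log2 scale, and 7098 genes were higher and 4742 lower in place of 5709 and 5873. Under that scaling Vegfa, P4ha1, Bnip3, Egln2 and Vhl stayed higher and Hif1a and Ndrg1 stayed lower, whereas Egln1 and Egln3 turned to log2 changes of 0.11 and 0.10 that did not pass. That makes 5 higher and 2 lower of 9, against 43.6% and 29.2% of all genes, or 72.8% in either direction. Higher and lower below refer to the deposited scaling.

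**Figure D1:**
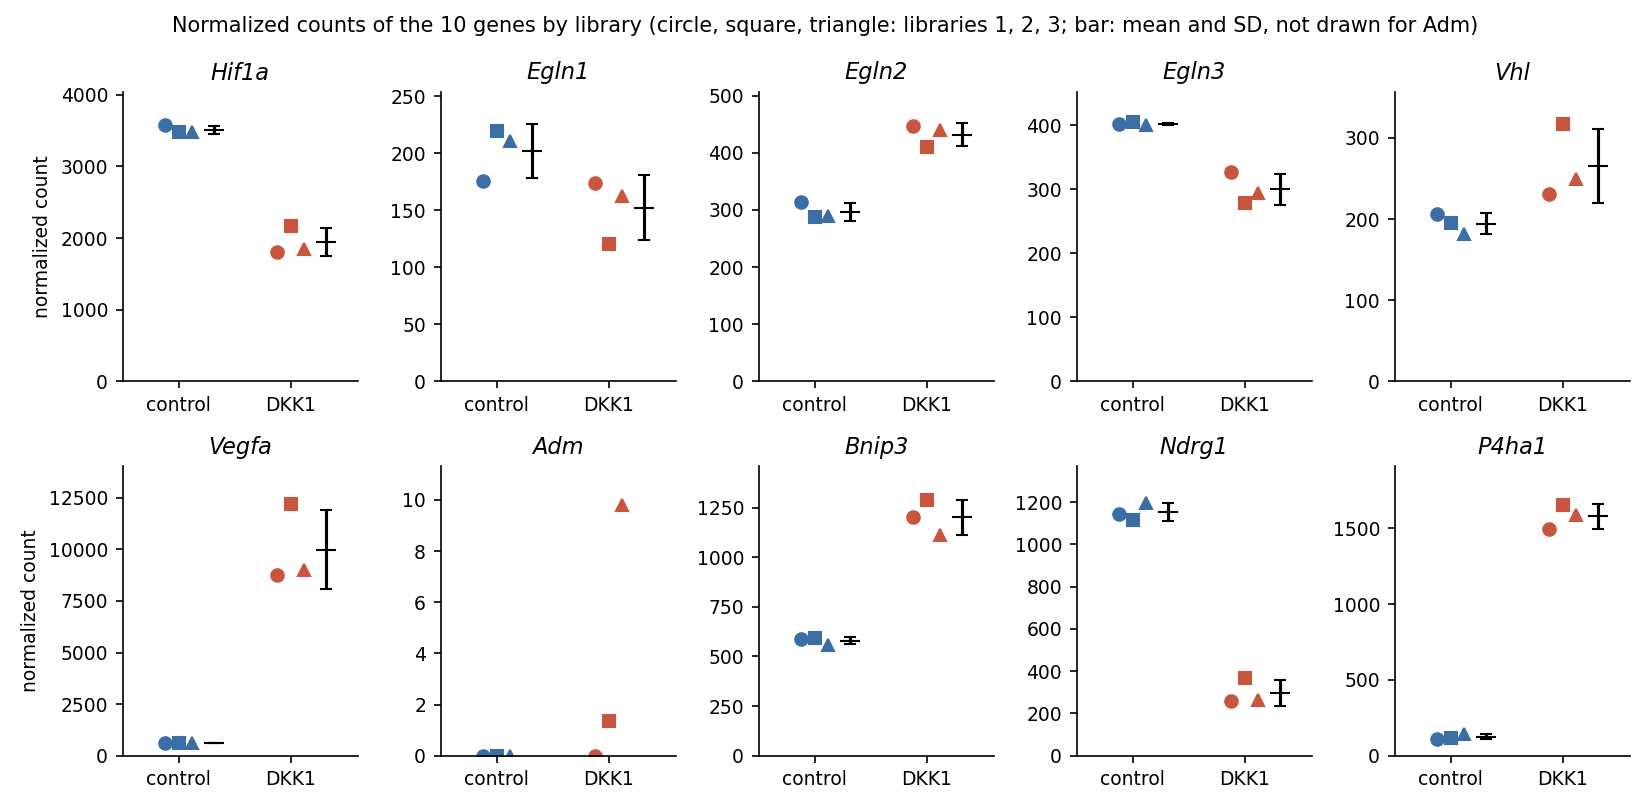
Normalized counts (linear vertical axes starting at 0) of the 10 genes in the 3 control and 3 DKK1 libraries, with the mean and SD beside the points except for Adm. Vegfa lies between 624 and 629 in control and between 8758 and 12178 with DKK1, and Egln1 is the tested gene whose groups come closest, at 176 and 174.

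Hif1a, the gene of the oxygen-regulated subunit, lies on chromosome 12 from 73901375 to 73947530, plus strand (ENSMUSG00000021109.14; all gene positions follow GENCODE M21, GRCm38). Its normalized counts, by library number, were 3580.0, 3479.8 and 3475 in control and 1804, 2172 and 1854 with DKK1. Each DKK1 library lay below each control library. The means were 3512 ± 59.3 and 1943 ± 199.5, a fall of 1.81-fold (log2 change -0.86, SE 0.08, limma adjusted p = 6.67e-06). With equal totals the fall was smaller, at a log2 change of -0.33 (limma adjusted p = 0.000489), and the groups still did not overlap.

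Among the other subunit genes Arnt, the partner gene, stood at 861 ± 30.4 in control and 785 ± 30.7 with DKK1 and did not pass (log2 change -0.13, limma adjusted p = 0.114), while with equal totals it was called higher (log2 change 0.40). Epas1, which encodes the second alpha subunit, had 0 reads in control and 1 with DKK1, below a floor of 3 reads over a group. A list of 9 genes held subunits, coactivators and other regulators, the repressor and nuclear receptor genes below among them. Of these 7 were tested, and 3 were higher, 3 lower, and 1 did not pass (median log2 change -0.13), shares near the 35.1% and 36.1% of all genes tested. Hif3a, on the same list, had 0 reads in control and 15 with DKK1, at least 4.17-fold higher against that floor. It met the filter of at least 1 in 3 libraries only through the DKK1 group, which fixed its direction. The coactivator gene Ep300 fell 2.37-fold, from 5799.8 ± 62.6 to 2449 ± 83.1. Cited2, whose product competes with the alpha subunit for that coactivator and is itself induced by the factor, fell 3.94-fold, from 1229 ± 18.1 to 312 ± 64.3. Bhlhe40, a repressor gene of the same helix-loop-helix family, rose 6.81-fold, from 275 ± 14.8 to 1873 ± 399. The nuclear receptor gene Rora was also higher, with 3 reads in control and 79 with DKK1.

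The 3 prolyl hydroxylase genes did not move together. Egln2, which encodes the family member that low oxygen does not induce, had normalized counts of 314, 287 and 289 in control and 446, 409 and 440.1 with DKK1. It rose 1.46-fold (log2 change 0.54, SE 0.09, limma adjusted p = 0.00044), with every DKK1 library above every control library. Egln3, whose mRNA is a well-known target of the factor and whose product feeds back on it, had counts of 402, 404 and 401 in control and 326, 279 and 295 with DKK1. It fell 1.34-fold under the deposited scaling (log2 change -0.43, SE 0.09, limma adjusted p = 0.00251), and with equal totals its log2 change was 0.10, with a 95% interval of -0.14 to 0.35. Egln1, which encodes the main oxygen sensor of most cells and is also a target, had 176, 220.1 and 211 in control and 174, 121 and 162 with DKK1. The highest DKK1 library lay just under the lowest control library. Its fall of 1.33-fold passed narrowly (log2 change -0.41, SE 0.17, limma adjusted p = 0.048, within a range of 0.021 to 0.607 over 16 alternatives). The call was lost when control library 2 or 3 or DKK1 library 2 or 3 was left out, and leaving out DKK1 library 2 gave -0.26 on the log2 scale.

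Ratios of genes within a library do not depend on how libraries are scaled, and Egln2 rose relative to the other 2 enzymes by this measure. A ratio does not show opposite directions. With equal totals the log2 change was 1.07 for Egln2, and 0.11 for Egln1 and 0.10 for Egln3, which did not pass. The ratio of Egln3 to Egln2 was 1.28, 1.41 and 1.39 in control and 0.731, 0.681 and 0.67 with DKK1, a mean 1.96 times lower. That of Egln1 to Egln2 was 0.559, 0.767 and 0.73 in control and 0.391, 0.295 and 0.369 with DKK1, 1.95 times lower. Neither ratio overlapped between groups. The ratio of Egln1 to Egln3 was 0.502 ± 0.0572 in control and 0.506 ± 0.0636 with DKK1 and did overlap. An exact two-sided permutation test of 3 against 3 libraries cannot go below p = 0.1, which the first 2 ratios reached and the third did not (p = 0.8). In all, 8 such ratios were computed, a set chosen after the values were seen.

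Vhl, the gene of the substrate receptor that marks the hydroxylated subunit for degradation, had 206, 195 and 181 in control and 230.3, 317 and 249 with DKK1. The groups did not overlap, and DKK1 library 2 was the highest. Vhl rose 1.37-fold (log2 change 0.44, SE 0.14, limma adjusted p = 0.0182; over 16 alternatives 8.67e-05 to 0.069), and the call was lost without control library 3 (log2 change 0.39, limma adjusted p = 0.069). Its ratio to Egln2 was 0.655 ± 0.0265 in control and 0.619 ± 0.138 with DKK1, with overlapping groups (exact permutation p = 0.6). Egln2, Egln1, Egln3 and Vhl lie on chromosomes 7 (27158658 to 27166802), 8 (124908587 to 124949324), 12 (54178981 to 54203860) and 6 (113623959 to 113631633).

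Of 12 further genes of sensing and turnover, all tested, 8 were higher, 1 lower and 3 did not pass, against 35.1% higher and 36.1% lower over all genes (median log2 change 0.52). The number higher ranged from 7 to 9 over 16 alternatives, and it was 7 under 12 of them. Hif1an encodes the asparagine hydroxylase that blocks coactivator binding in oxygen. It rose 1.38-fold, from 448 ± 25.9 to 617 ± 39.9 (limma adjusted p = 0.001). Rbx1, the RING subunit gene of the ubiquitin ligase to which VHL belongs, rose 2.10-fold, from 277 ± 20.0 to 582 ± 64.3. Rack1, whose product promotes degradation of the alpha subunit independently of oxygen, rose 3.53-fold. The genes of the chaperone that protects the subunit, Hsp90aa1 and Hsp90ab1, rose 13.8-fold and 2.46-fold.

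**Figure D2:**
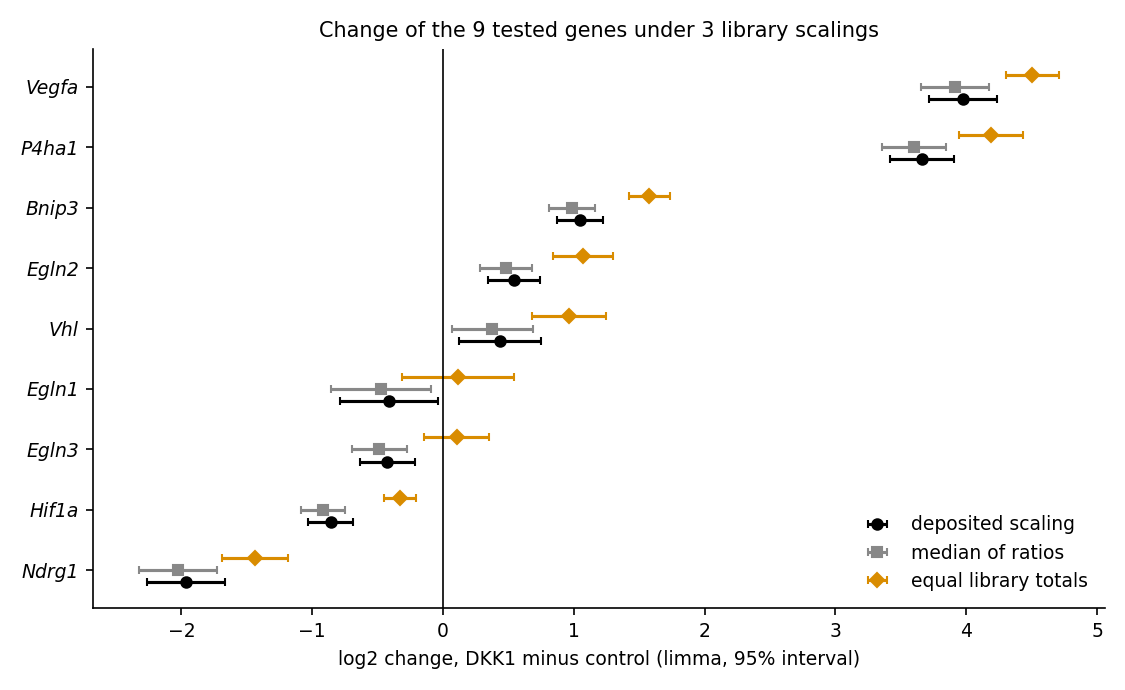
Log2 change (DKK1 minus control, horizontal axis, limma with 95% intervals) of the 9 tested genes under the deposited scaling, median-of-ratios scaling and equal library totals. Egln1 and Egln3 are the genes that change sides, from -0.41 and -0.43 to 0.11 and 0.10 with equal totals, while Vegfa and P4ha1 stay above 3 under each scaling.

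Among the targets, Vegfa rose most. It encodes the vascular endothelial growth factor that drives new vessel growth, and neutrophils are a known source of it. Its normalized counts were 624, 629 and 626 in control and 8758, 12178 and 8996 with DKK1, so that the control libraries were nearly alike and all DKK1 libraries lay far above them. The mean rose 15.9-fold (log2 change 3.98, SE 0.11, limma adjusted p = 3.21e-09). It rested on 1766 reads in control and 31634 with DKK1. DKK1 library 2 was 1.37 times the mean of the other DKK1 libraries, and leaving it out gave 3.82 on the log2 scale. Relative to Hif1a in the same library, Vegfa stood at 0.178 ± 0.00357 in control and 5.10 ± 0.435 with DKK1. Vegfa lies on chromosome 17 from 46016993 to 46032369, minus strand.

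Flt1, a VEGF receptor gene, stood at 6.69 ± 1.15 in control and had 0 reads with DKK1, at least 6.83-fold lower against a floor of 3 reads over the group. The coreceptor gene Nrp1 rose 2.48-fold, from 14.1 ± 1.74 to 35.0 ± 4.27, and Nrp2 rose 6.06-fold, from 39.6 ± 2.75 to 240.1 ± 61.8. Vegfd, the gene of a ligand of the lymphatic branch, had 0 reads in control and 53 with DKK1, at least 14.9-fold higher. Of the 16 listed ligand and receptor genes of VEGF and adrenomedullin 9 were tested, with 5 higher and 4 lower, against 35.1% and 36.1% of all genes. Of these 9, 3 had 0 reads in 1 group. They met the filter of at least 1 in 3 libraries only through the other group, which fixed their direction. The median log2 change of the 9 tested genes was 1.25, or 0.92 with genes at 0 reads in a group placed at their bound.

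Adm encodes adrenomedullin, a vasodilator peptide and a strong hypoxia target in many tissues. It had 0 reads in each control library and 0, 1 and 12 reads in DKK1 libraries 1 to 3, or normalized counts of 0, 1.37 and 9.80. Only DKK1 library 3 stood above the others, and the gene did not meet the filter of a value of at least 1 in 3 libraries. Genes of its receptor were present only in part, with Ramp2 and Ramp3 at 0 reads in control. Calcrl, the receptor gene, fell 2.68-fold, from 142 ± 7.05 to 53.1 ± 29.1. Ramp1, which encodes a partner that directs that receptor towards the related peptide CGRP, fell from 476 reads to 5 (limma log2 change -6.62, adjusted p = 8.37e-06). All 5 reads came from DKK1 library 3, and without it, with 0 reads left in the group, the fitted log2 change was -7.41, so the size of the fall is not well fixed. The other 2 partner genes, Ramp2 and Ramp3, each make it an adrenomedullin receptor. Ramp2 had 0 reads in both groups. Ramp3 had 0 reads in control and 16, 0 and 1 in DKK1 libraries 1 to 3, at least 3.98-fold higher over the group, but it rested on library 1 and did not meet the filter.

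P4ha1 encodes the catalytic subunit of the collagen prolyl 4-hydroxylase, an enzyme of the endoplasmic reticulum distinct from the EGLN sensors. Its counts were 111, 119.5 and 143 in control and 1496, 1655 and 1585 with DKK1. It rose 12.7-fold (log2 change 3.66, SE 0.11, limma adjusted p = 3.58e-09), and the DKK1 libraries lay close together. P4hb, the gene of the beta subunit of that enzyme, rose 2.31-fold, from 587 ± 48.5 to 1359 ± 151. The ratio of P4ha1 to P4hb was 0.211 ± 0.012 in control and 1.18 ± 0.19 with DKK1, 5.56 times higher (exact permutation p = 0.1). P4ha2, the gene of a second catalytic subunit, had 0 reads in control and 19 with DKK1, at least 6.00-fold higher. Of 11 listed collagen-modifying genes 6 were tested, and 3 were higher, 1 lower, and 2 did not pass, against 35.1% and 36.1% of all genes (median log2 change 1.38). P4ha2 is 1 of the 3 higher genes and met the filter only through the DKK1 group, which fixed its direction. Plod3, a lysyl hydroxylase gene, fell 8.56-fold. P3h1, a prolyl 3-hydroxylase gene, was higher at 18.1 ± 7.36 against 5.86 ± 3.82 (limma adjusted p = 0.0297), with groups that overlapped, and the call was lost without control library 1 or 2 or DKK1 library 1 or 2 (limma adjusted p of 0.0647, 0.0963, 0.102 and 0.0717). P4ha1 lies on chromosome 10 from 59323296 to 59373304, plus strand.

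Bnip3 encodes a mitochondrial outer membrane protein of the BCL2 family that recruits the autophagy machinery to mitochondria. Its counts were 585, 594 and 559.6 in control and 1202, 1288 and 1113 with DKK1. It rose 2.07-fold (log2 change 1.05, SE 0.08, limma adjusted p = 1.75e-06), with no overlap. Its paralog Bnip3l rose less, 1.44-fold from 2006 ± 109.8 to 2887 ± 332 (log2 change 0.52). The ratio of Bnip3 to Bnip3l was 0.29 ± 0.024 in control and 0.417 ± 0.0181 with DKK1 (exact permutation p = 0.1). Bnip3 lies on chromosome 7 from 138890836 to 138909519, minus strand. An antisense gene, Gm45507, shares 504 bases of exon with it and stood between 23.6 and 66.3 in the 6 libraries. Genes on the opposite strand also share exon bases with Hif1a, Ndrg1 and Egln2, each at 35.1 or below, and without knowledge of strand in the counting these reads cannot be told apart. Gm49321, annotated as protein-coding on the same strand as Hif1a, shares 148 exon bases with it. It had no row in the deposited values, and how reads over those bases were counted is not known.

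The sequences upstream of 3 genes are shown because they hold the core motif that hypoxia-inducible factors bind and because the genes differ in direction, Bnip3 and P4ha1 higher and Egln3 lower under the deposited scaling. With equal totals the log2 change of Egln3 was 0.10 and did not pass. Whether the number of places goes with direction was not tested. The motif searched was ACGTG or GCGTG on both strands, so that CACGT and CACGC mark the opposite strand, and CACGTG, which holds it on both strands, was counted as 1 place. The capitals mark each place. Sequences are from RefSeq windows of GRCm38.p6, 5′ to 3′ on the strand of the gene, and begin 250 bases before the transcript start. That of Bnip3 (chr7:138909527-138909756, minus strand) ends 21 bases before the start, and those of P4ha1 (chr10:59323046-59323295, plus strand) and Egln3 (chr12:54203875-54204124, minus strand) end 1 base before it.
Bnip3: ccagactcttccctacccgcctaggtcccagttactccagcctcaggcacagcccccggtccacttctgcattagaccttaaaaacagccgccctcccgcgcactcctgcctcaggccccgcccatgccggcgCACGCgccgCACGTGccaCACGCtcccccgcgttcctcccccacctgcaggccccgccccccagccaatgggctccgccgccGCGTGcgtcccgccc
P4ha1: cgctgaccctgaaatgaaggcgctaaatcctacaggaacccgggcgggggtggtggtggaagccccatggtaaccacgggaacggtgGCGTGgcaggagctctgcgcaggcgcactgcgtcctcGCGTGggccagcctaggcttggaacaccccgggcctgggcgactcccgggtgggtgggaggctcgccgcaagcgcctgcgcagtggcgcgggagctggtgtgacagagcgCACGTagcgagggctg
Egln3: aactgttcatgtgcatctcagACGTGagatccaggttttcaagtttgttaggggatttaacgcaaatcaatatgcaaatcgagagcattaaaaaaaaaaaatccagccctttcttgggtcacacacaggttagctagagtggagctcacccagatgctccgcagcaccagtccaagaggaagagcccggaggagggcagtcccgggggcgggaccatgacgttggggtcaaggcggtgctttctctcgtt
Bnip3 held 4 places, 3 of them between 117 and 99 bases before the start, P4ha1 held 3 and Egln3 held 1, at 229 bases. Over windows of 300 bases, 8 of the 9 genes with an entry held the motif in at least 1 window, including Hif1a, Egln1, Egln2 and Adm. Vhl held none, and Vegfa held none at its upstream start and 2 places at its downstream start. By window, 9 of the 11 windows of these genes held the motif, against 43.8% of all 32851 promoter windows of that length. The difference was not tested. Ndrg1 had no window. A match is a description of the letters and does not show binding.

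Ndrg1, a stress-responsive gene of the N-myc downstream regulated family and a common marker of hypoxia, moved against Vegfa, P4ha1 and Bnip3. Its counts were 1142, 1114 and 1197 in control and 260.1, 368 and 265 with DKK1. It fell 3.87-fold (log2 change -1.97, SE 0.13, limma adjusted p = 8.89e-07), and the highest DKK1 library was far below the lowest control library. With equal totals the log2 change was -1.44. Its paralog Ndrg3 fell 2.07-fold, from 133 ± 8.35 to 64.6 ± 9.36, while Ndrg2 and Ndrg4 stood at 7 and 5 reads in control, at 7 and 21 with DKK1, and did not pass. The ratio of Ndrg1 to Ndrg3 was 8.66 ± 0.702 in control and 4.70 ± 1.32 with DKK1 (exact permutation p = 0.1). Ndrg1 lies on chromosome 15 from 66929318 to 66969640, minus strand.

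Per length of exon, the order of the 10 genes changed between groups. Levels here are normalized counts per kilobase of merged GENCODE M21 exons, which counts rarely used exons as well. In control Hif1a was highest at 596 ± 10.1, followed by Bnip3 at 256 ± 7.95, Ndrg1 at 174 ± 6.42, Egln3 at 151 ± 0.662, Vegfa at 146 ± 0.612 and Egln2 at 106 ± 5.41. Vhl and Egln1 followed at 64.9 ± 4.21 and 56.3 ± 6.51, with ranges that overlapped, and then P4ha1 at 30.2 ± 4.02. With DKK1, Vegfa was highest at 2328 ± 446, followed by Bnip3 at 530.3 ± 38.8, P4ha1 at 384 ± 19.4 and Hif1a at 329.6 ± 33.8, the last pair overlapping. Egln2 at 154 ± 7.09 stood above Egln3 at 113 ± 9.10 with DKK1 and below it in control. Egln3 and Vhl (88.6 ± 15.3) overlapped, as did Ndrg1 (45.1 ± 9.27) and Egln1 (42.5 ± 7.82). DKK1 library 2 was the highest DKK1 library for 6 of the 10 genes and the lowest for 3.

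**Figure D3:**
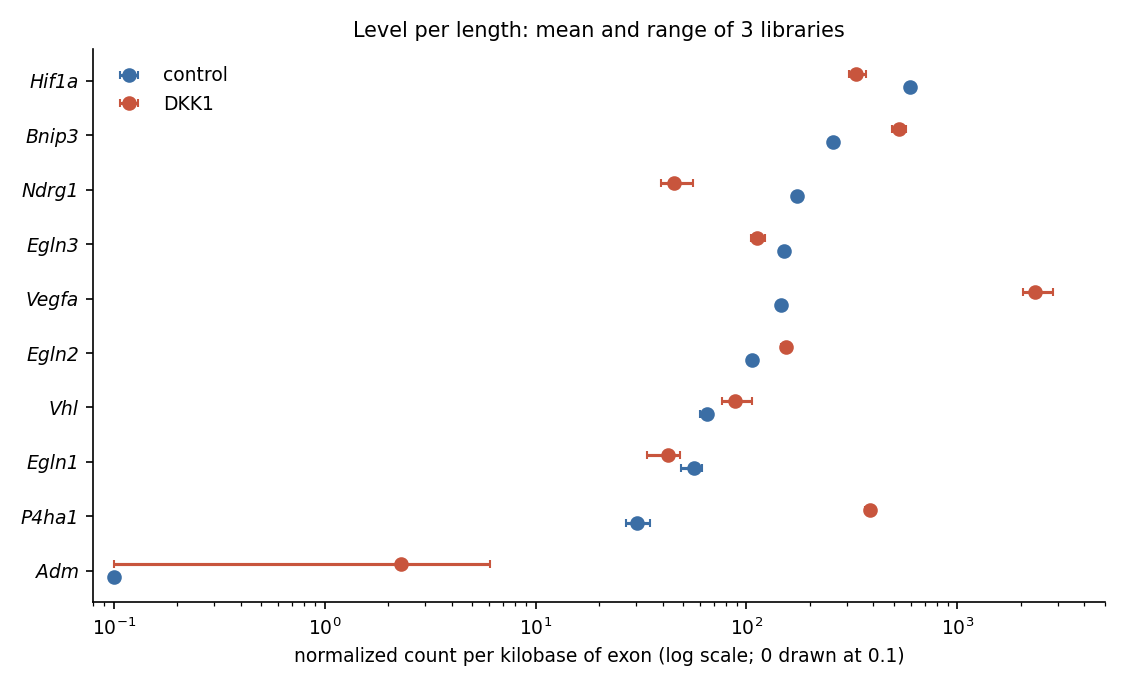
Normalized count per kilobase of exon (horizontal log axis, mean and range of 3 libraries, 0 drawn at 0.1) for the 10 genes in control and DKK1 libraries. Vegfa moves from 146 to 2328 and P4ha1 from 30.2 to 384, while Ndrg1 moves from 174 to 45.1.

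The wider set of glycolytic targets split in direction. Of 21 genes, all tested, 11 were higher, 8 lower and 2 did not pass, against 35.1% higher and 36.1% lower over all genes, with a median log2 change of 0.24 against -0.03. Of the glucose transporter genes, Slc2a1 fell 1.70-fold, from 1229 ± 58.3 to 722 ± 55.6, a call lost with equal totals (log2 change -0.24, limma adjusted p = 0.0514). Slc2a3 fell from 15441 ± 129.7 to 607 ± 70.0. Pfkfb4, a regulator of the phosphofructokinase step, fell 91.9-fold from 4799.8 ± 239 to 52.2 ± 5.22, and the lactate exporter gene Slc16a3 fell 7.38-fold. Enzymes that rose included Pdk1, the kinase that keeps pyruvate out of the mitochondrion, 4.23-fold from 31.2 ± 0.654 to 132 ± 14.4, and lactate dehydrogenase (Ldha), 1.61-fold from 2032 ± 26.5 to 3268 ± 98.8. Tpi1, triosephosphate isomerase, stood at 469.6 ± 9.42 and 4309 ± 109.

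Of 44 further targets 35 were tested, and 23 were higher, 9 lower, and 3 did not pass, against 35.1% higher and 36.1% lower over all genes (median log2 change 1.48). Of these 35, 2 had no reads in a group, P4ha2 among them. They met the filter only through the other group, which fixed their direction. Tfrc, the transferrin receptor gene, rose 41.2-fold from 136 ± 15.4 to 5608 ± 312. Gbe1, the glycogen branching enzyme, rose 12.7-fold from 280.5 ± 16.9 to 3556 ± 159, and Hmox1, heme oxygenase, rose 11.9-fold. Fos, an immediate early factor, fell 266-fold. Bnip3l, P4ha2, Plod1, Plod2 and Rora each stand on 2 of the lists, and the lists hold genes with other inducers too. With equal totals the counts were 12 higher and 6 lower of the glycolytic genes and 25 higher and 7 lower of the further targets, against 43.6% and 29.2% of all genes.

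**Figure D4:**
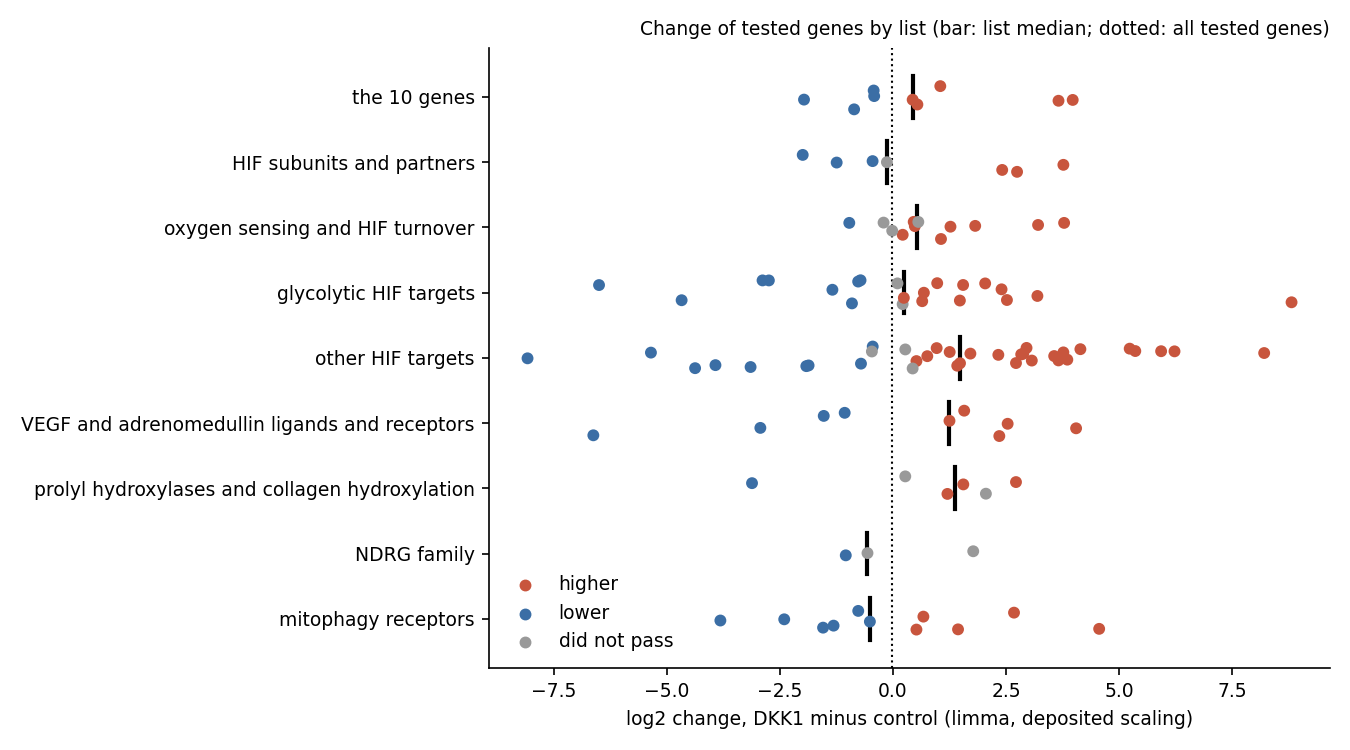
Log2 change (horizontal axis, limma, deposited scaling) of each tested gene by list, coloured by call, with the list median as a bar and the median of all tested genes as a dotted line. Of the lists drawn, each with more than 3 tested genes holds both higher and lower calls, and the list of further targets has the highest median, 1.48.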

How the data were processed

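RNA sequencing was done on 6 libraries, grouped by sample title. The deposited table gives normalized counts per gene, a signal that the authors made by dividing gene counts by 1 factor per library; reads were assigned to mm10, per the submitters' processing notes. Aligner, counting tool, strand, annotation release and how factors were set: not given in the sources used here. Another 3 columns of values belong to no listed sample and were left aside. In every library 100% of values were whole multiples of the value of 1 read (tolerance 0.001 reads), which gave recovered reads; these lack molecular identifiers, so floors cover counting error only.

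Genes with a value of at least 1 in 3 libraries were tested with limma 3.58.1 in R 4.3.3 (trend, robust) on log2(value + 1), two-sided, with Benjamini-Hochberg adjustment over all genes. This scale understates changes of low genes. Folds are ratios of group means; a fold against a group at 0 reads uses a floor of 3 reads over the group. Of the gene identifiers, 51948 (91.3%) matched GENCODE M21 without version. The members and lists were chosen with earlier results of these data known. All 10 members were named, with up to 4 tested genes of smallest adjusted p from each pathway list and 15 genes fixed by name; any other was chosen after its values were seen. Alternatives were other pseudocounts, filters, scalings and fits, the replicate number as a block, each library left out, and edgeR 4.0.16 and DESeq2 1.42.0 on recovered reads. The limma and edgeR scripts were tested on simulated data in which few genes changed, as many up as down, with scaling by read depth. In the real comparison 71.2% of genes passed and the deposited totals differed between groups, so that test does not cover the choice of scaling.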

Additional observations from a re-analysis of the deposited data

How the results depend on the processing

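Of the 9 tested members, Vegfa, P4ha1, Bnip3, Egln2, Hif1a and Ndrg1 kept direction and call under all 16 alternatives. With equal totals the members called lower fell from 4 to 2, since Egln1 (log2 change 0.11) and Egln3 (0.10) reversed, and Arnt reversed to 0.40. Among the results of named genes outside the members, 640 were on the same side of the threshold, 6 were weaker, 4 stronger and 1 reversed. Egln1 also lost its call with a pseudocount of 0.1 (limma adjusted p = 0.0631), without a filter (0.0518), and with limma lacking trend and robust fitting (0.0996); the last also lost Vhl (0.0531). Leaving out 1 library in turn gave 7 to 9 members called, 10892 to 11546 genes called. On recovered reads edgeR called 5 members higher and 4 lower, as did DESeq2, and of all genes edgeR called 11402 and DESeq2 10679. With a filter of 10 in 3 libraries 2 collagen-modifying genes were called in place of 4, since fewer genes were tested. With equal totals Ndrg4 was called higher (limma adjusted p = 0.0355), as it was without control library 2 (0.00543); the cause was not tested.

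Replicate numbers are shared by the groups, but same-numbered libraries did not deviate together (correlations of -0.01, 0.01 and 0.02). Such correlations cannot decide whether same-numbered libraries came from a shared animal, culture or preparation, which the labels do not give. With the replicate number as a block members called were 8 and genes called 11447, and Egln1 did not pass (limma adjusted p = 0.0717). Depth limits Adm, Epas1, Ndrg2 and Ndrg4, which rest on 0 to 7 reads in control and 1 to 21 with DKK1.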

Other observations

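Of 11 listed mitophagy receptor genes other than Bnip3, all tested, 5 were higher and 6 lower by limma, against 35.1% and 36.1% of all genes (median log2 change -0.51, against -0.03 over all genes tested), and with equal totals 5 were higher and 4 lower. Sqstm1, an autophagy adaptor gene, rose from 1535 ± 35.3 to 36693 ± 7312 (SD, n = 3 each), and Optn, a further adaptor gene, rose 6.47-fold. Pink1, the kinase gene that marks damaged mitochondria, fell 5.28-fold from 687 ± 35.3 to 130.1 ± 22.3, and Nlrx1, a mitochondrial NOD-like protein gene, fell 14.3-fold.

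The following genes were chosen after their values were seen, from the lists of hypoxia targets. Hilpda, a lipid droplet protein gene, rose 60.2-fold from 17.0 ± 8.78 to 1024 ± 216. Ero1a, an endoplasmic reticulum oxidase gene, rose 7.25-fold, Kdm3a, a histone demethylase gene, 3.28-fold, Pgk1, phosphoglycerate kinase, 2.80-fold, and Mif, a cytokine gene, 36.5-fold. Against them Cxcr4, the chemokine receptor gene that retains neutrophils in marrow, fell 20.5-fold from 7025 ± 145 to 343 ± 70.9, and Mxi1, a MYC antagonist gene, fell 15.3-fold. Each of these calls kept its direction with equal totals.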
